A study of Rattus norvegicus with 36 samples.

Results

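The miR-29 family (rno-miR-29a-3p, rno-miR-29b-3p and rno-miR-29c-3p) and the fibroblast miRNAs of the miR-199a and miR-214 transcript (rno-miR-199a-5p, rno-miR-199a-3p and rno-miR-214-3p) were followed in irradiated and unirradiated rat lung, with whole blood beside it. These 6 mature miRNAs were chosen by name for their reported roles in fibrosis, out of 947 miRNAs counted and 458 known rat miRNAs. Female WAG/RijCmcr rats, 9 to 10 weeks old at exposure, received a single dose of 15 Gy X-rays to the whole thorax and were sampled at 1, 2, 3 and 4 weeks, and age matched rats that were not irradiated (0 Gy) stood for 1 and 4 weeks. Lung (right superior lobe) and blood drawn from the heart each gave 18 small RNA libraries, 3 per group, and by the study's methods each library pooled equal amounts of RNA from 3 rats. The field took in the lung, the heart and a small part of the liver, and all rats were of one inbred strain and one sex.

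Mature miRNAs lower the output of messenger RNAs that pair with their seed, bases 2 to 8 from the 5′ end. miR-29 miRNAs are known to repress collagens and other matrix genes, and in lung, heart and liver fibrosis they are usually described as antifibrotic. miR-199a and miR-214 are cut from one long noncoding transcript that runs opposite to the Dnm3 gene, is abundant in mesenchymal cells, and has been described as profibrotic, with caveolin-1 as a target of miR-199a-5p in human lung fibroblasts. In bulk tissue, fewer cells of a type and less RNA per cell cannot be told apart.

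The sequences are shown because family membership rests on the seed, which is in capitals. All 6 names were found among the RefSeq mature miRNAs of rat (assembly GRCr8), and the sequences below are RefSeq's, 5′ to 3′.
rno-miR-29a-3p: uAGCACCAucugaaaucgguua
rno-miR-29b-3p: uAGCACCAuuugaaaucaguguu
rno-miR-29c-3p: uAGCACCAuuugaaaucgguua
rno-miR-199a-5p: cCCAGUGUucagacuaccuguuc
rno-miR-199a-3p: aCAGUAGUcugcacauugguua
rno-miR-214-3p: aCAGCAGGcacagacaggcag
The 3 miR-29 members shared 1 seed with each other and with no other rat miRNA of that set, and each of the remaining 3 members had a seed that no other entry shared. With positions counted from 1 at the 5′ end, rno-miR-29a-3p and rno-miR-29c-3p differed at 1 of 22 bases (C10U). rno-miR-29a-3p and rno-miR-29b-3p differed at 4 of the 22 bases compared (C10U, G18A, U21G and A22U). Reads cut short before position 18 could therefore not separate rno-miR-29b-3p from rno-miR-29c-3p, and their split is less certain than their sum. RefSeq places Mir29a and Mir29b1 on chromosome 4, and Mir29b2, Mir29c, Mir199a2 and Mir214 on chromosome 13, so the rno-miR-29b-3p count pools the products of 2 precursors.

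Lung libraries held 8132 to 3807051 counts (median 1269431) and blood libraries 1156407 to 2340177. The 2 shallowest lung libraries stood far below the others, 15 Gy 3 weeks replicate 3 with 8132 counts and 0 Gy 1 week replicate 3 with 11621 counts. In 15 Gy 3 weeks replicate 3 the red cell list took 48.2% of all counts. In 0 Gy 1 week replicate 3 a single read was worth 53.7 CPM, the unit of all levels here: counts relative to a library size adjusted by the trimmed mean of M values (TMM). Fold changes of the members in lung are given with these 2 libraries and then without them, in places for some members only. Those of miRNAs in other lists are given with the 2 libraries only. Defining lung markers were present: the endothelial miR-126a arms took 0.372% to 2.96% of counts, the epithelial list 0.320% to 0.878% and the smooth muscle list 5.09% to 17.9% in the 18 lung libraries.

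In unirradiated lung, rno-miR-29a-3p was the most abundant of the 6 by its median over both control groups and rno-miR-29b-3p the least. In 0 Gy lung at 4 weeks alone, rno-miR-199a-3p had the higher median (901 CPM, against 651 CPM for rno-miR-29a-3p). Both medians were values of replicate 3, whose TMM factor of 0.463 was the lowest in lung and raised its CPM. Relative to unadjusted library totals its values were 417 and 301, and the group medians, then from replicate 2, were 699 and 621. Over the 6 control libraries, rno-miR-29a-3p ran from 376 to 1371 CPM (median 941.5) and rno-miR-199a-3p from 641 to 966 CPM (median 798), and these neighbours overlapped. rno-miR-199a-5p followed at 77.1 to 319 CPM (median 224), below every value of rno-miR-199a-3p. rno-miR-29c-3p ran from 0 to 113 CPM (median 66.5) and overlapped the range of rno-miR-199a-5p. Below it came rno-miR-214-3p from 21.9 to 53.7 CPM (median 27.6) and rno-miR-29b-3p from 3.85 to 53.7 CPM (median 9.60), where the value of 53.7 was 1 read of the shallow control library in both cases. By summed counts in control lung, the members ranked 40 (rno-miR-29a-3p), 52 (rno-miR-199a-3p), 83 (rno-miR-199a-5p), 108 (rno-miR-29c-3p), 151 (rno-miR-214-3p) and 200 (rno-miR-29b-3p) among the 458 known rat miRNAs. These are levels of reads of similar length, and since adapters join to different miRNAs with different ease, they order reads and not molecules.

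The opposite arms of miR-29 precursors that were counted were nearly absent. Of 6 names of other arms and copies looked for, the table held 3, all of them miR-29 arms, and the rest could not be judged. In all 18 lung libraries together rno-miR-29a-5p had 20 counts, rno-miR-29b-2-5p 10 counts and rno-miR-29c-5p 58 counts. None of the 3 passed the filter on low counts, so no difference in them was tested.

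At 1 week after 15 Gy, the 3 miR-29 members were lower and rno-miR-214-3p was higher in the fitted means than in unirradiated lung at 1 week, but none of the 6 differences passed the test. rno-miR-29a-3p had 447, 959 and 527 CPM in 15 Gy lung, against 1292, 1371 and 376 CPM in 0 Gy lung. rno-miR-29c-3p, which pairs with the same sites, had 28.1, 29.4 and 48.4 CPM in 15 Gy lung, against 81.6, 113 and 0 CPM in 0 Gy lung. rno-miR-29b-3p had 1.40, 4.90 and 5.72 CPM in 15 Gy lung, against 9.79, 9.41 and 53.7 CPM in 0 Gy lung, which were 2, 2 and 11 reads against 18, 11 and 1. For rno-miR-29a-3p and rno-miR-29c-3p the control library of low depth held the lowest value of all 6 libraries compared, and the other 2 control libraries lay above every irradiated one. Only rno-miR-29b-3p had groups that did not overlap, on very few reads, beside 15.2% of all miRNAs tested. Without the control library of low depth that share was 39.5%.

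rno-miR-214-3p, a miRNA of activated fibroblasts, had 47.8, 61.3 and 57.8 CPM in 15 Gy lung at 1 week, against 27.7, 27.4 and 53.7 CPM in 0 Gy lung. Its 3 irradiated values lay above the 2 well covered controls, and the control value of 53.7 CPM stood for 1 read. In those well covered libraries 39.5% of all miRNAs tested had groups that did not overlap. Its transcript partners had fitted differences of the other sign. rno-miR-199a-3p had 564, 422 and 930.1 CPM in 15 Gy lung, against 789.9, 679.9 and 806 CPM in 0 Gy lung, and rno-miR-199a-5p had 110.3, 294 and 123 CPM in 15 Gy lung, against 319, 242 and 269 CPM in 0 Gy lung. Both sets of values overlapped between the groups.

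**Figure D1:**
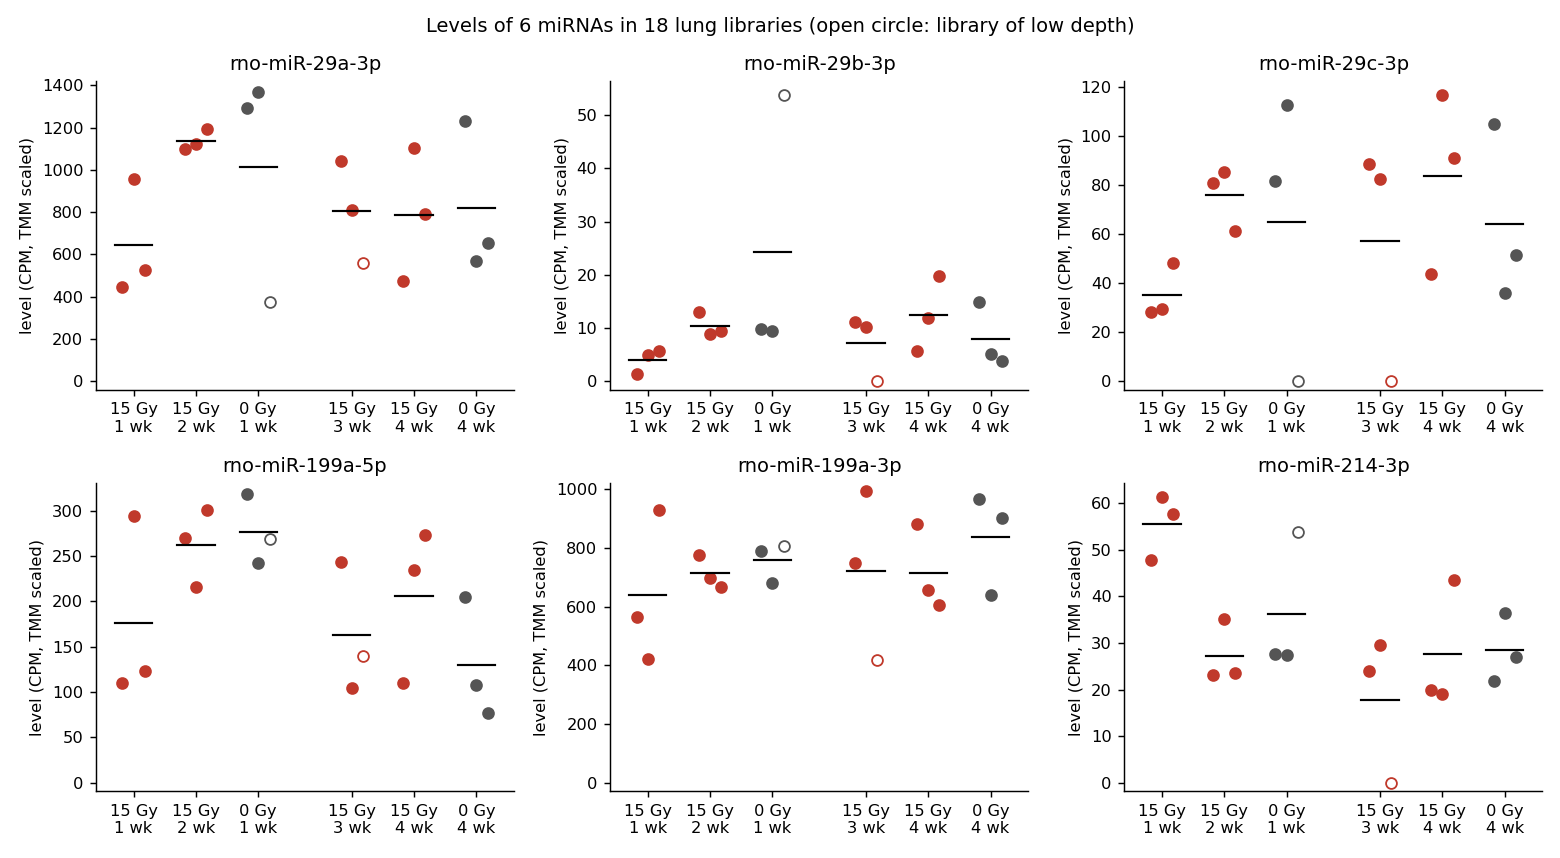
Level of each of the 6 miRNAs in the 18 lung libraries, in CPM after TMM scaling on linear axes, with 15 Gy groups (red) left of the 0 Gy group (grey) they were compared with; points are libraries, black lines group means, and open circles the 2 libraries of low depth. At 1 week after 15 Gy the rno-miR-29c-3p values lay between 28.1 and 48.4 CPM, below the 2 well covered controls at 81.6 and 113 CPM.

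In the edgeR quasi-likelihood fit of all 18 lung libraries, with Benjamini-Hochberg adjustment over the 499 miRNAs that passed the filter (all 6 members among them), 0 of 6 members were called at 1 week, beside a background of 0.0% of all miRNAs tested. At an unadjusted p under 0.05 that comparison had 32 miRNAs higher and 20 lower, none of them a member, and DESeq2 called 6 higher, none a member. The log2 fold changes (15 Gy over 0 Gy, ± SE) were -0.68 ± 0.49 for rno-miR-29a-3p (edgeR adjusted p = 0.647), -1.54 ± 0.73 for rno-miR-29b-3p (adjusted p = 0.445) and -1.16 ± 0.62 for rno-miR-29c-3p (adjusted p = 0.505). They were 0.88 ± 0.42 for rno-miR-214-3p (edgeR adjusted p = 0.462), -0.66 ± 0.51 for rno-miR-199a-5p (adjusted p = 0.691) and -0.24 ± 0.35 for rno-miR-199a-3p (adjusted p = 0.909). The median over all miRNAs tested was 0.15. The 95% intervals were wide: that of rno-miR-29c-3p ran from -2.48 to 0.16 and that of rno-miR-214-3p from -0.03 to 1.79. A p above the threshold does not show that the levels were alike.

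Without the 2 libraries of low depth the 1 week differences were -1.02 for rno-miR-29a-3p (edgeR adjusted p = 0.251), -1.22 for rno-miR-29b-3p, -1.42 for rno-miR-29c-3p (adjusted p = 0.193) and 1.04 for rno-miR-214-3p (adjusted p = 0.193), again with 0 members called. Those of rno-miR-199a-5p and rno-miR-199a-3p were -0.64 and -0.16. With 0 Gy lung at 4 weeks as the control instead, the difference of rno-miR-199a-5p turned to 0.43, while the other 5 kept their sign. In CPM, 1 of 6 members (rno-miR-29b-3p) had groups at 1 week that did not overlap, beside 15.2% of all miRNAs tested. Without the library of low depth, with 3 libraries against 2, 4 of 6 did not overlap (the 3 miR-29 members lower, rno-miR-214-3p higher), beside 39.5% of all miRNAs tested.

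Shares of counts taken by markers of other cells varied between the same libraries, and the endothelial and red cell shares overlapped between the groups. At 1 week the endothelial list took 0.696%, 1.62% and 1.41% of counts in 15 Gy lung, against 2.24%, 2.90% and 1.36% in 0 Gy lung. The red cell list took 5.66%, 2.83% and 2.78% in 15 Gy lung, against 0.705%, 1.06% and 5.80% in 0 Gy lung. In the fit, however, 1 of its 4 miRNAs was higher and 3 were lower, with a median log2 fold change of -0.13. The leukocyte list took 0.00664%, 0.0156% and 0.0123% in 15 Gy lung, against 0.0278%, 0.0262% and 0.0258% in 0 Gy lung. Of these lists, both endothelial miRNAs were counted in every lung library, while the miR-144 arms of the red cell list and miR-142-3p of the leukocyte list were at 0 in the 2 libraries of low depth alone, and miR-223-3p in the shallower of them. The last 0 Gy value of each list came from the library of 11621 counts. In the fit both endothelial miRNAs (median -0.67) and all 3 leukocyte miRNAs (median -1.25) were lower. The smooth muscle list had 2 higher and 2 lower (median -0.005), the epithelial list 3 and 3 (-0.09) and the lymphocyte list 1 and 1 (0.20). None of these miRNAs was called. The part of these cell types in the miR-29 and miR-214 differences was not tested.

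At 2 weeks, with unirradiated lung at 1 week again as the control, the 6 members stood near the control level, and the libraries of the group lay close together. rno-miR-29a-3p had 1097, 1123 and 1196 CPM in 15 Gy lung, and rno-miR-199a-3p had 777, 698 and 668 CPM, against the 0 Gy values given above. rno-miR-214-3p had 23.1, 35.1 and 23.5 CPM in 15 Gy lung at 2 weeks. All 6 log2 fold changes lay between -0.14 (rno-miR-214-3p) and 0.15 (rno-miR-29a-3p), with edgeR adjusted p = 1 for each and SE of 0.35 to 0.73. No member was called, beside 0.0% of all miRNAs tested (24 higher and 2 lower at an unadjusted p under 0.05; DESeq2 called 3 higher and 3 lower, none a member). No member had groups that did not overlap, beside 15.8% of miRNAs; without the library of low depth rno-miR-29a-3p lay below both controls, beside 31.5%, and its log2 fold change turned to -0.35. The other 5 then lay between -0.48 (rno-miR-29c-3p) and 0.07 (rno-miR-29b-3p).

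The series holds no unirradiated group for 3 weeks, and the 15 Gy libraries of that week were set against unirradiated lung at 4 weeks. rno-miR-29a-3p had 1042, 809.5 and 559 CPM in 15 Gy lung, against 1232, 569.5 and 651 CPM in 0 Gy lung at 4 weeks. rno-miR-199a-3p had 750.1, 994 and 419 CPM in 15 Gy lung, against 966, 641 and 901 CPM in 0 Gy lung. In both cases the last 15 Gy value came from the library of 8132 counts, in which rno-miR-29b-3p, rno-miR-29c-3p and rno-miR-214-3p had no read, and a count of 0 there allows up to 3 reads. The log2 fold changes ran from -0.17 (rno-miR-199a-3p) to 0.36 (rno-miR-199a-5p), with edgeR adjusted p = 1 for each member. Without the libraries of low depth they ran from -0.09 (rno-miR-214-3p) to 0.47 (rno-miR-199a-5p), and that of rno-miR-199a-3p turned to 0.07. With 0 Gy lung at 1 week as the control, all 6 were below 0, down to -0.73 for rno-miR-199a-5p. No member was called, beside 0.0% of all miRNAs tested (12 higher and 27 lower at an unadjusted p under 0.05; DESeq2 called 3 higher and 1 lower, none a member), and none had groups that did not overlap, beside 12.4% of miRNAs in all libraries and 20.2% without the library of low depth.

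At 4 weeks the miR-29 members of 15 Gy lung spread as widely as those of 0 Gy lung. rno-miR-29a-3p had 474, 1101 and 789 CPM in 15 Gy lung, against 1232, 569.5 and 651 CPM in 0 Gy lung. rno-miR-29c-3p had 43.7, 117 and 91.2 CPM in 15 Gy lung, against 105, 36.0 and 51.4 CPM in 0 Gy lung. rno-miR-29b-3p had 5.71, 11.9 and 19.8 CPM in 15 Gy lung, against 14.8, 5.01 and 3.85 CPM in 0 Gy lung. In each of the 3, the range of one group covered most of the range of the other.

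For the fibroblast miRNAs at 4 weeks, rno-miR-199a-5p had 110.3, 235 and 274 CPM in 15 Gy lung, against 205, 108 and 77.1 CPM in 0 Gy lung. rno-miR-214-3p had 20.0, 19.05 and 43.6 CPM in 15 Gy lung, against 21.9, 36.4 and 26.98 CPM in 0 Gy lung. The largest of the 6 differences was that of rno-miR-199a-5p, with a log2 fold change of 0.66 ± 0.50 (SE; edgeR adjusted p = 0.935), and the smallest that of rno-miR-29a-3p, at -0.05 ± 0.49 (adjusted p = 0.997). Without the libraries of low depth, which belong to other groups but share the fit, these 2 values were 0.70 and 0.01. With 0 Gy lung at 1 week as the control, that of rno-miR-199a-5p turned to -0.43 and that of rno-miR-29b-3p to -0.03. No member was called, beside 0.0% of all miRNAs tested (20 higher and 28 lower at an unadjusted p under 0.05; DESeq2 called 6 higher and 4 lower, none a member), and none had groups that did not overlap, beside 11.8%.

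**Figure D2:**
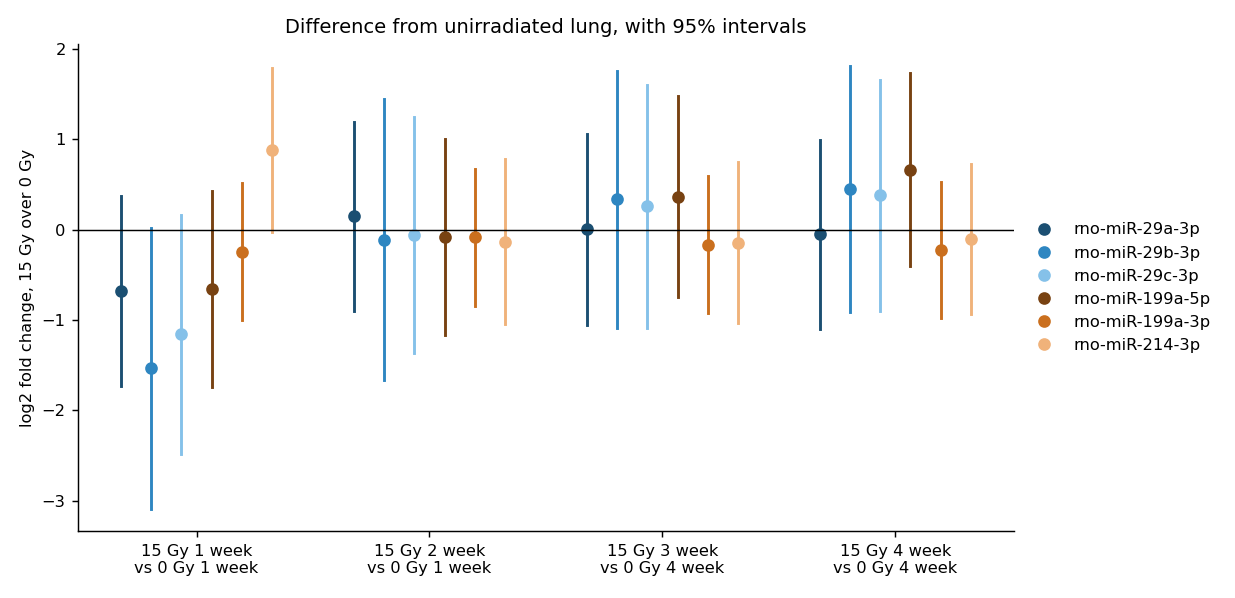
Log2 fold change of each of the 6 miRNAs in 15 Gy lung over the 0 Gy lung it was compared with, by week, from the edgeR fit; points are fitted values and bars their 95% intervals. Every interval crosses 0, and at 1 week the intervals of rno-miR-29b-3p and rno-miR-214-3p only just do so.

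The 4 irradiated groups were also pooled against both control groups. The log2 fold changes lay between -0.22 ± 0.42 (SE) for rno-miR-29b-3p and 0.12 ± 0.26 for rno-miR-214-3p, and that of rno-miR-29a-3p was -0.14 ± 0.30 with a 95% interval from -0.78 to 0.49. Without the 2 libraries of low depth they lay between -0.29 (rno-miR-29a-3p) and 0.18 (rno-miR-214-3p). No member was called by edgeR (adjusted p from 0.965 to 1), beside 0.0% of all miRNAs tested (28 higher and 17 lower at an unadjusted p under 0.05; DESeq2 called 4 higher and 2 lower, none a member).

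Whether the response at 4 weeks differed from that at 1 week was tested as an interaction, the 4 week difference minus the 1 week difference, against a median of -0.33 over all miRNAs. It was 1.98 ± 0.97 (SE) for rno-miR-29b-3p (edgeR adjusted p = 0.329), 1.54 ± 0.86 for rno-miR-29c-3p (adjusted p = 0.362) and 0.62 ± 0.69 for rno-miR-29a-3p (adjusted p = 0.693). It was 1.32 ± 0.71 for rno-miR-199a-5p (edgeR adjusted p = 0.345), -0.98 ± 0.57 for rno-miR-214-3p (adjusted p = 0.373) and 0.02 ± 0.50 for rno-miR-199a-3p (adjusted p = 1). Without the libraries of low depth it was 1.03 for rno-miR-29a-3p, 1.74 for rno-miR-29b-3p, 1.86 for rno-miR-29c-3p, 1.34 for rno-miR-199a-5p, -0.01 for rno-miR-199a-3p and -1.14 for rno-miR-214-3p, with edgeR adjusted p from 0.182 to 1.00. No member was called, beside 0.0% of all miRNAs tested (20 higher and 48 lower at an unadjusted p under 0.05; DESeq2 called 4 higher and 8 lower, none a member). A difference in response between the weeks was thus not detectable for any of the 6 at this depth and number of libraries.

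The 2 control groups themselves differed most in rno-miR-199a-5p. It had 205, 108 and 77.1 CPM in 0 Gy lung at 4 weeks, against 319, 242 and 269 CPM in 0 Gy lung at 1 week, and the groups did not overlap, which was so for 13.6% of all miRNAs tested. Its log2 fold change, 4 weeks over 1 week, was -1.09 ± 0.51 (SE; unadjusted p = 0.0499, edgeR adjusted p = 0.568), and the other 5 members lay between -0.48 and 0.14. No member was called, beside 0.0% of all miRNAs tested (28 higher and 8 lower at an unadjusted p under 0.05, rno-miR-199a-5p among the lower; DESeq2 called 4 higher and 2 lower, none a member). Without the library of low depth, rno-miR-29a-3p and rno-miR-199a-5p both lay lower at 4 weeks with no overlap, beside 33.3% of miRNAs, and their log2 fold changes were -0.75 and -1.15. The 3 week and 4 week comparisons use the later control group and the 1 and 2 week comparisons the earlier, so a shift between controls enters them.

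The balance of the 2 groups of miRNAs was read within each library, as the summed counts of the 3 miR-29 members over the summed counts of the 3 fibroblast members, which needs no scaling between libraries. At 1 week this ratio was 0.659, 1.28 and 0.523 in 15 Gy lung, against 1.22, 1.57 and 0.381 in 0 Gy lung, where the last value rested on 8 and 21 reads. At 2 weeks it was 1.11, 1.28 and 1.27 in 15 Gy lung, the narrowest spread of the 6 groups. At 3 weeks it was 1.12, 0.800 and 1.00 in 15 Gy lung, and at 4 weeks 0.516, 1.35 and 0.974 in 15 Gy lung, against 1.13, 0.778 and 0.703 in 0 Gy lung at 4 weeks. In no week did the ratio of all irradiated libraries fall outside the range of the controls on the same side.

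On the log2 scale the balance averaged -0.39 ± 0.67 (SD, n = 3) in 15 Gy lung at 1 week and -0.15 ± 1.09 in 0 Gy lung at 1 week, a difference of -0.24 that is smaller than either spread. Without the library of low depth the difference was -0.86, and again one irradiated library, replicate 2, had a ratio above that of the lower control. The differences at 2, 3 and 4 weeks were 0.44, 0.18 and 0.04, beside a pooled SD over the groups of 0.62. Without the libraries of low depth those at 2 and 3 weeks were -0.18 and 0.15, so the direction at 2 weeks turned with 1 library. With the balance taken instead as the mean log2 CPM of the miR-29 members minus that of the fibroblast members, the differences at 1, 2, 3 and 4 weeks were -0.45, 0.68, -0.19 and 0.23, so the direction at 3 weeks turned as well. Between the controls, 4 weeks minus 1 week, the difference was -0.08 from summed counts, -0.70 without the library of low depth and 0.48 by this other measure. No test was run on this summed score.

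**Figure D3:**
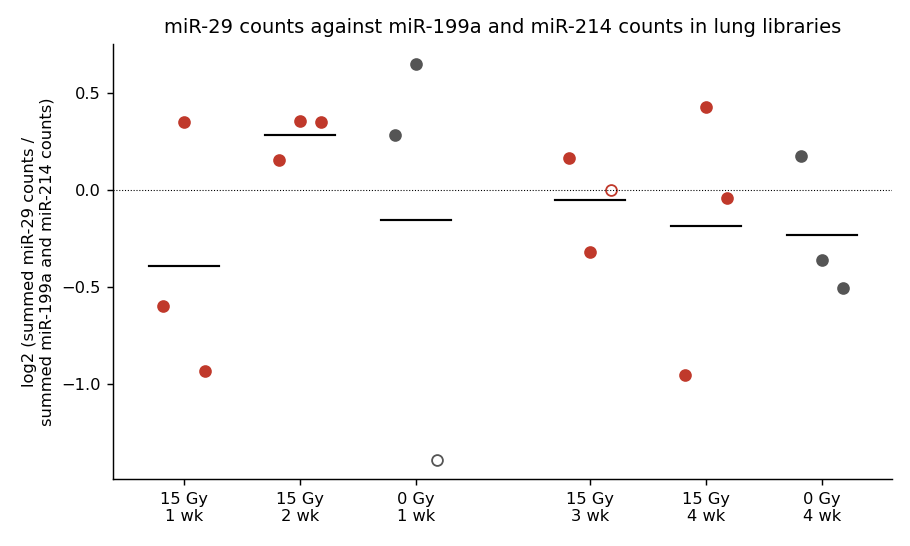
Log2 of the summed miR-29 counts over the summed miR-199a and miR-214 counts in each lung library, with 15 Gy groups (red) left of the 0 Gy group (grey) they were compared with; points are libraries, lines group means, open circles the 2 libraries of low depth. The groups overlap in each week, and the lowest point, from a control library of low depth, has a ratio of 0.381.

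How closely the members followed one another was read over the 16 lung libraries of at least 100000 counts, as the SD of the log2 ratio of 2 counts (with 0.5 added to each); a low SD means a steady ratio. These are descriptions without a test, over libraries that share depth and tissue makeup. Within the miR-29 family, rno-miR-29a-3p and rno-miR-29c-3p had an SD of 0.45, rno-miR-29b-3p and rno-miR-29c-3p one of 0.48, and rno-miR-29a-3p and rno-miR-29b-3p one of 0.61. rno-miR-29a-3p outnumbered rno-miR-29c-3p in all 16, from 8.65-fold in 15 Gy 4 weeks replicate 3 to 32.6-fold in 15 Gy 1 week replicate 2, where rno-miR-29c-3p had 12 reads. All 3 SDs lay below the median for known rat miRNAs, which was 0.82 for rno-miR-29a-3p, 1.02 for rno-miR-29b-3p and 0.88 for rno-miR-29c-3p.

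The 2 arms of miR-199a, which are cut from one hairpin, did not keep a steady ratio. The SD of their log2 ratio was 0.87, near the median of 0.92 over known miRNAs for rno-miR-199a-5p and above the 0.66 for rno-miR-199a-3p. The 3p arm outnumbered the 5p arm in all 16 libraries, by 1.43-fold in 15 Gy 1 week replicate 2 and by 11.7-fold in 0 Gy 4 weeks replicate 3. Within 15 Gy lung at 1 week this arm ratio was 5.12, 1.43 and 7.57, against 2.48, 2.81 and 3.00 in 0 Gy lung at 1 week. At 4 weeks it was 8, 2.81 and 2.22 in 15 Gy lung, against 4.71, 5.96 and 11.7 in 0 Gy lung. It stayed close in 15 Gy lung at 2 weeks, at 2.87, 3.24 and 2.22, and in 0 Gy lung at 1 week, and it spread widely in the other groups with well covered libraries.

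The rno-miR-199a-5p arm kept a steadier ratio to rno-miR-29a-3p (SD 0.41) than to its own partner arm. The SD of rno-miR-214-3p was 0.74 with rno-miR-199a-3p, 0.90 with rno-miR-199a-5p and 0.89 with rno-miR-29a-3p. It was 1.06 with rno-miR-29c-3p and 1.17 with rno-miR-29b-3p. The median for rno-miR-214-3p over known miRNAs was 0.78, so its closest tie among the members was about that of any miRNA. The same held for rno-miR-199a-3p, whose closest member was rno-miR-29c-3p (SD 0.63, beside its median of 0.66). rno-miR-214-3p had a median of 34 counts per library, so counting error adds to its SDs. In 0 Gy 4 weeks replicate 3, the library with the widest arm ratio, the smooth muscle list took 17.9% and the endothelial list 0.372% of counts, the extremes of the 18 lung libraries on both lists. The part of tissue makeup in the arm ratio was not tested.

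The known rat miRNAs with the steadiest ratio to each member were named by the same measure. For rno-miR-199a-3p these were rno-miR-34c-5p (SD 0.20, median ratio 0.95), a p53 target in mammals, rno-miR-93-5p (0.28) and rno-miR-221-3p (0.31), a miRNA of endothelium and smooth muscle. For rno-miR-199a-5p they were rno-miR-125b-5p (0.36), rno-miR-223-3p (0.37), a miRNA of myeloid cells, and rno-miR-3588 (0.37). For rno-miR-214-3p they were rno-miR-320-3p (0.36), rno-miR-664-3p (0.42) and rno-miR-455-3p (0.47).

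For rno-miR-29a-3p they were rno-miR-3556b (0.24), rno-miR-497-5p (0.24), of the miR-15 and miR-16 seed family, and rno-miR-26a-5p (0.28). For rno-miR-29c-3p they were rno-miR-141-3p (0.28), an epithelial miRNA, rno-miR-15b-5p (0.42) and rno-miR-30e-5p (0.42). For rno-miR-29b-3p they were rno-miR-3587 (0.31), rno-miR-142-5p (0.43), of blood cells, and rno-miR-141-3p (0.45). The nearest member of its own seed family thus came behind miRNAs with other seeds for each miR-29 member.

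Among names given only as genome positions, the closest for rno-miR-199a-3p was a locus on chromosome 13 with an SD of 0.04, far below that of any named miRNA. Its counts were 1.36 times those of rno-miR-199a-3p in the median library. The study lists this locus as a new miRNA predicted by homology. The position is given on the rn4 build, which was not used here, so whether it holds a miR-199a precursor was not looked up. Reads counted under both names were not tested for, so the steady ratio does not show a separate miRNA that follows rno-miR-199a-3p.

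**Figure D4:**
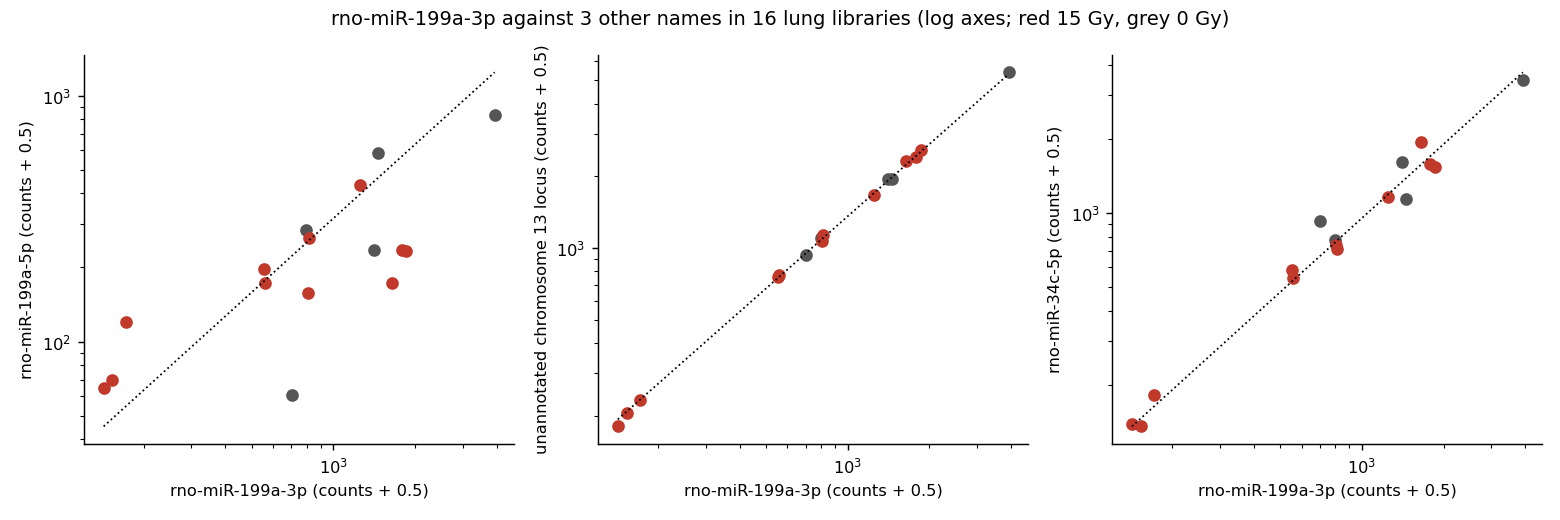
Counts (plus 0.5, log axes) of rno-miR-199a-3p on the x axis against its partner arm rno-miR-199a-5p, an unannotated chromosome 13 locus and rno-miR-34c-5p in the 16 lung libraries of at least 100000 counts (15 Gy red, 0 Gy grey; dotted line, median ratio). The partner arm scatters around the line with an SD of 0.87 on the log2 scale, the locus follows it with an SD of 0.04.

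A further 3 rat miRNA names that RefSeq places on the strand opposite to miR-29 precursors were also counted, and their sequences are shown because they are the reverse complements of the members. Capitals mark the bases that pair without a gap with rno-miR-29a-3p (rno-miR-3556a), rno-miR-29b-3p (rno-miR-3587) and rno-miR-29c-3p (rno-miR-3556b).
rno-miR-3556a: CGAUUUCAGAUGGUGCUA
rno-miR-3587: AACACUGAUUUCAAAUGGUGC
rno-miR-3556b: ACCGAUUUCAAAUGGUGCUA
Every base of the 3 names paired, 18, 21 and 20 bases long. In lung as a whole, rno-miR-3556a had 61 counts beside 20281 of rno-miR-29a-3p, rno-miR-3587 had 304 beside 205 of rno-miR-29b-3p, and rno-miR-3556b had 3363 beside 1628 of rno-miR-29c-3p. A reverse complement was thus counted more often than the miRNA itself for rno-miR-29b-3p and rno-miR-29c-3p, and hardly at all for rno-miR-29a-3p.

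rno-miR-3587 kept between 1.00 and 2.33 times the rno-miR-29b-3p count in the 16 libraries (SD of the log2 ratio 0.31). rno-miR-3556b kept between 1.30 and 6.12 times the rno-miR-29c-3p count (SD 0.56) and followed rno-miR-29a-3p more closely (SD 0.24). The sources used here do not state whether the counting used strand, and without it reads of a miRNA and of its reverse complement cannot be told apart. The rno-miR-29b-3p and rno-miR-29c-3p counts are uncertain to that extent.

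**Figure D5:**
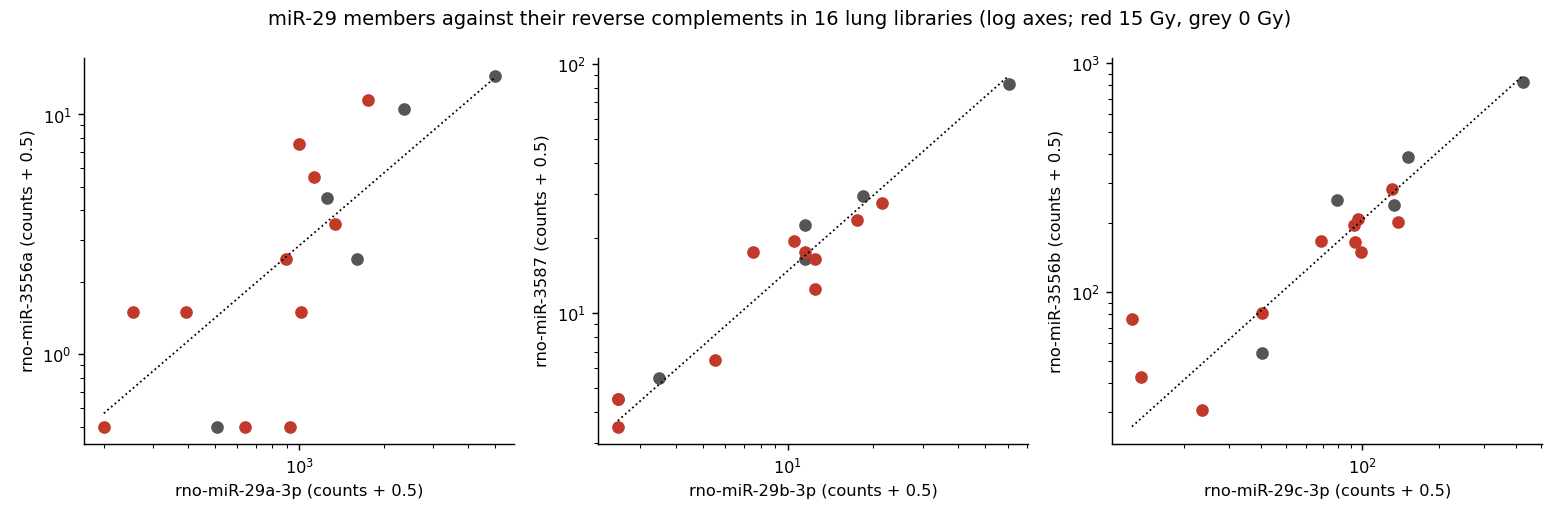
Counts (plus 0.5, log axes) of each miR-29 member on the x axis against the rat miRNA name that is its reverse complement on the y axis in the 16 lung libraries of at least 100000 counts (15 Gy red, 0 Gy grey; dotted line, median ratio). rno-miR-3587 stays within 1.00 to 2.33 times the rno-miR-29b-3p count, while rno-miR-3556a is at or near 0 in many libraries.

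Other miRNAs with a reported role in fibrosis gave a context for the members. Of 5 miRNAs listed as promoting fibrosis, 4 passed the filter in lung, and of 9 listed as restraining it, 9 did. None of these 13 was called by edgeR in any of the 7 lung comparisons, beside the background of 0.0% in each. At 1 week the list medians were 0.32 for the promoting list and 0.12 for the restraining list, beside 0.15 over all miRNAs. At 2 weeks they were 0.37 and 0.15, beside 0.10, and at 3 weeks 0.08 and 0.04, beside -0.10. At 4 weeks they were 0.58 and 0.03, beside -0.18. Between the 0 Gy groups, 4 weeks over 1 week, they were 0.61 and -0.17, beside 0.12, so the lists also differed without irradiation. In the promoting list the largest values were those of rno-miR-21-3p, the less used arm of the miR-21 hairpin, with a log2 fold change of 1.70 ± 0.66 (SE) at 4 weeks (edgeR adjusted p = 0.453) and 1.21 ± 0.46 over all weeks (adjusted p = 0.379). In the restraining list, rno-miR-326-3p, known in mouse to target TGF-β1, had 0.90 ± 0.48 at 1 week (edgeR adjusted p = 0.505).

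In blood the members were close to absent. Over the 18 blood libraries rno-miR-29a-3p had 302 counts and rno-miR-199a-3p 38, each with at least 1 read in all 18, while rno-miR-29c-3p had 10, rno-miR-29b-3p 4, rno-miR-199a-5p 2 and rno-miR-214-3p 1. Only rno-miR-29a-3p passed the filter on low counts in blood, 1 of 6 members among 289 miRNAs tested. The red cell miRNA miR-486-5p took 83.3% to 95.9% of the counts of a blood library and left 70470 to 315003 counts for all others. That share limits how far a low level in blood can be read.

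rno-miR-29a-3p counts in blood were 17, 14 and 5 at 1 week and 18, 19 and 22 at 2 weeks after 15 Gy, against 18, 8 and 4 in 0 Gy blood at 1 week. They were 18, 39 and 9 at 3 weeks and 18, 33 and 12 at 4 weeks after 15 Gy, against 12, 17 and 19 in 0 Gy blood at 4 weeks. The log2 fold changes were 0.38, 0.33, 0.34 and 0.26 at 1, 2, 3 and 4 weeks, with SE of 0.40 to 0.41, and 0.33 ± 0.25 for all weeks together. None passed the edgeR test (adjusted p from 0.519 to 0.982). The share of blood miRNAs called was 0.346% at 1 week and 0.346% at 2 weeks (1 of 289 each), 0.0% at 3 weeks, 0.0% at 4 weeks and 1.04% over all weeks. At 3 weeks 17 were higher and 26 lower at an unadjusted p under 0.05, and at 4 weeks 12 and 10, where DESeq2 called 4 lower in each week, none a member. With library totals in place of TMM scaling the 2 week value was 1.41 (edgeR adjusted p = 0.151), and with 0 Gy blood at 4 weeks as the control it was -0.06. The study's supplementary table has the counts of 2 blood libraries of week 1 the other way round, replicate 2 of the 15 Gy group and replicate 1 of the 0 Gy group, so their labels are in doubt. With these 2 libraries exchanged the values at 1 and 2 weeks were 0.15 and 0.21, again not called.

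Between tissues, all 6 members were higher in unirradiated lung than in unirradiated blood in the edgeR fit of 36 libraries (6 of 6 called, beside 75.0% of the 576 miRNAs tested in either direction). Only rno-miR-29a-3p also passed the filter in blood alone. The other members entered this fit through their lung counts, so their direction was largely set by the filter. Adjusted p ran from 7.0e-13 for rno-miR-199a-3p to 0.00107 for rno-miR-29b-3p. The median of all miRNAs in this comparison was 1.85 on the log2 scale, so a miRNA is above the rest only beyond that. The fitted log2 difference was 4.66 ± 0.37 (SE) for rno-miR-29a-3p and 6.88 ± 0.46 for rno-miR-199a-3p. Without miR-486-5p in the totals the median was 0.45.

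From summed counts of the 6 control libraries of each tissue, scaled by TMM, rno-miR-199a-3p was 131-fold higher in lung (8288 counts in lung, 13 in blood; 95% counting interval 76.6 to 246), and rno-miR-29a-3p 28.3-fold higher (10736 counts in lung, 78 in blood; 22.6 to 35.8). On few blood counts, rno-miR-199a-5p had a ratio of 411 (2002 counts in lung, 1 in blood; 73.8 to 16260), rno-miR-29c-3p one of 84.9 (826 in lung, 2 in blood; 23.4 to 702) and rno-miR-29b-3p one of 10.7 (104 in lung, 2 in blood; 2.88 to 89.4). rno-miR-214-3p had 274 counts in lung and 0 in blood and was at least 18.8-fold higher in lung, taking 3 counts over the 6 blood libraries as the floor; its exact counting interval starts lower, at 15.2, and without miR-486-5p in the totals the value at that floor was 9.82. With miR-486-5p left out of the totals the fold of rno-miR-199a-3p was 68.6 and that of rno-miR-29a-3p 14.8, so the order of these 2 members was kept. Exact binomial intervals and floors cover counting error only, as PCR reads are not independent molecules.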

How the data were processed

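Small RNA libraries of lung and whole blood were made with the Illumina TruSeq Small RNA kit. The authors trimmed adapters and bases of low quality, mapped reads with Bowtie to miRBase and the rat genome, and predicted new miRNAs with miRanalyzer. Trim Galore 0.2.5, Bowtie 1.1.1 and the build rn4 are named in the submitters' processing notes. What the authors deposited is 1 table of raw read counts, not normalized, with 947 miRNAs (458 of them known rat miRNAs) and 36 libraries. Strand handling is not given in the sources used here.

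Tests were run with edgeR 4.0.16 in R 4.3.3 (filterByExpr by group, TMM scaling, quasi-likelihood test, two-sided, Benjamini-Hochberg adjustment over all miRNAs tested, threshold 0.05). Each tissue had 1 fit of 18 libraries in 6 groups, and lung against blood 1 fit of 36. Groups came from the labels, which give 3 rats per group where the methods give pools of 3 rats per library. P-values measure the spread between these pooled libraries. The 0 Gy group at 1 week was the control for weeks 1 and 2, that at 4 weeks for weeks 3 and 4. Standard errors (SE) are fold changes on the log2 scale divided by the square root of F. edgeR can raise p above what this SE implies where counts are low (its Poisson bound), and p without the bound was added as an alternative after the data were seen. Values in CPM are TMM scaled. Filtering left 499 miRNAs in lung, 289 in blood and 576 in both. Shallow lung libraries were those under 0.1 of the median depth. The test code was run on simulated counts with set differences, and that run was not used to judge the absence of calls here. No library was identical to another.

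The 6 members and all lists were chosen with earlier results of these data known. Named miRNAs were the members, other arms and copies of their precursors, and the 2 fibrosis lists. For each member, the 3 known rat miRNAs and 1 locus with the steadiest ratio were named as well. The 3 reverse complement names were added after their values were seen. Alternatives were RLE, library total and miR-191a-5p scaling, DESeq2 1.42.0, no filter, known miRNAs only, only the groups compared, the other control group, a replicate block, each library left out in turn, the shallow libraries left out, miR-486-5p left out and 2 blood libraries exchanged (15 Gy 1 week replicate 2 and 0 Gy 1 week replicate 1), for which the supplementary and deposited tables disagree; the deposited labels were followed. Sequences are RefSeq's (GRCr8), whose coordinates were not used because the files' build is rn4.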

Additional observations from a re-analysis of the deposited data

How the results depend on the processing

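No member passed the threshold in any irradiation or age comparison under any setting run: of 1342 recomputed log2 fold changes 0 did, and the smallest adjusted p was 0.105. Of these values 103 had the other sign, in 28 of 47 results, none of which had a size above 0.66 at first. All 367 recomputed counts of called members equalled the first ones, 0 in lung and blood comparisons and 6 of 6 between tissues. In lung at 1 week, rno-miR-29a-3p ranged from -1.14 to -0.34 and rno-miR-29b-3p from -2.12 to -1.06 over the settings. With the replicate number as a block, 0 members were called in each lung and blood comparison and 6 between tissues. Same-numbered lung libraries deviated together with a median correlation of 0.0532 (over 0.1 in 20 of 45 pairs), against -0.0324 for differently numbered ones. Correlations this small neither show nor exclude a pairing by number. The block changed no call. Over all miRNAs DESeq2 called more than edgeR. In lung, where edgeR called 0, DESeq2 called from 3 higher and 1 lower (3 weeks) to 6 higher and 4 lower (4 weeks), and 4 higher and 8 lower for the interaction. In blood DESeq2 called 2 higher and 11 lower over all weeks, edgeR 1 and 2. With known rat miRNAs only, edgeR called 3 higher and 3 lower in lung at 1 week, 1 lower at 4 weeks, and 7 higher and 12 lower for the interaction. No member was among these. Depth limits rno-miR-29b-3p most, with 205 reads over all 18 lung libraries, and the shallow control at 1 week, where 1 read is 53.7 CPM.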
